A study of Mus musculus with 6 samples.

Results

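The primate chromosome 19 microRNA cluster is an array of related microRNAs that is found in primates and is not present in mouse. A mouse retina microarray carried 47 probes for it, out of 1730 probes that name a microRNA of any species, and all of them were hybridised to RNA of an animal that has no such gene. They were chosen by name alone: every spot whose label holds a human miR-512 or miR-515 to miR-527, with any suffix, and no mouse name. The 47 probes have 4 spots each, 188 in all, and carry 56 human names. Of the probes, 43 carry 1 name and 4 carry several, such as the probe shared by miR-518a-5p and miR-527. In mouse RNA their signal holds cross-hybridisation and noise, so they show what the contrast of naive and diseased retina looks like where no intended target exists.

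The arrays were LNA capture arrays, on which short probes with locked nucleic acids bind labelled small RNAs, and each was read in 2 colours. The sample channel, Hy3, held 800 ng of total RNA from retinal cells of B10.RIII mice aged 8 weeks. The reference channel, Hy5, held the same pool of equal amounts of all samples on every array. One group of 3 samples came from naive mice, and the other group of 3 from mice developing experimental autoimmune uveoretinitis (EAU), labelled as day 14. In EAU, T cells that recognise retinal proteins inflame the eye, and the disease serves as a model of uveitis in people. The labels call the samples independently harvested and do not state the number of mice behind each. The p-values below therefore cover the variation from harvest to harvest. All arrays have the same dye orientation. Each group was scanned on a day of its own, so that the effects of group and scan day cannot be told apart in any comparison below.

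In primates the cluster lies on human chromosome 19, is imprinted and is transcribed mainly in placenta and in embryonic stem cells. Many of its members carry the bases AAGUGC in their seed, the stretch near the 5′ end that selects targets. The mouse has no such cluster but has other microRNAs with these bases, in the stem cell clusters of miR-290 to miR-295 and of miR-302 and in the cell cycle group of miR-17, miR-20, miR-93 and miR-106. Among 1738 mature mouse sequences of the RefSeq annotation (GRCm38.p6), 0 carry a number of the rule, and 16 have AAGUGC starting at base 2 or 3. No mature sequence of a cluster member was found there, so the members are named only, and 8 of their mouse relatives are shown to make the shared bases visible. The capitals mark AAGUGC.
mmu-miR-302b-3p: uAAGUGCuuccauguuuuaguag
mmu-miR-302d-3p: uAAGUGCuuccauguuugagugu
mmu-miR-291a-3p: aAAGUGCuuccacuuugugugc
mmu-miR-294-3p: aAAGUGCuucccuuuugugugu
mmu-miR-295-3p: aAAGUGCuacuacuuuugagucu
mmu-miR-17-5p: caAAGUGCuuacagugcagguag
mmu-miR-106b-5p: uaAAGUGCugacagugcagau
mmu-miR-93-5p: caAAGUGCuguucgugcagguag
In the miR-302 and miR-290 to miR-295 sequences the bases start at base 2. In those of the miR-17 group they start at base 3. In GRCm38.p6, mmu-miR-302b-3p lies at chr3:127545275-127545297 on the plus strand, mmu-miR-294-3p at chr7:3220691-3220712 on the plus strand and mmu-miR-106b-5p at chr5:138165787-138165807 on the minus strand. The array holds 32 probes for mouse microRNAs of these clusters, both arms counted. Of these 32, 6 were above the blank level (defined below) on all 6 arrays and 16 on 0 arrays. By the limma comparison of the groups described below, 0 of 32 passed the adjusted threshold. The groups did not overlap for 17 of them (53.1%), 8 higher and 9 lower in EAU, against 43.1% of all probes.

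The tissue label was checked on 7 microRNAs of retina. MiR-183, miR-96 and miR-182 of photoreceptors, miR-124 and miR-9 of neurons, and miR-204 and miR-211 of pigment epithelium were all above the blank level on all 6 arrays. Their median log2 ratio difference was -0.91 (EAU minus naive), and 3 of 7 were called lower in EAU (miR-9, miR-204 and miR-211) by the ratio fit described below. In the sample channel alone, miR-183, miR-182 and miR-96 were called lower instead (limma adjusted p 0.0112, 0.0331 and 0.0194). There miR-9, miR-204 and miR-211 were at 0.125, 0.0767 and 0.0726. Of 4 leukocyte microRNAs, 1 was called higher in the ratio fit, miR-142-3p by 0.56, and 0 of 3 erythroid microRNAs were called in either direction. In the sample channel the called leukocyte microRNA was miR-142-5p (limma adjusted p 0.0287), and miR-142-3p was at 0.0721. The part of these marker microRNAs in the values of the primate probes was not tested.

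Most cluster probes were dim. The blank level of an array was set at the median plus 3 median absolute deviations of 116 empty spots and 28 negative-control spots, and a probe was above it if at least 50% of its spots were. In Hy3 fluorescence units the level was 89.3, 92.1 and 65.7 in naive replicates 1 to 3 and 72.7, 107 and 65.4 in EAU replicates 1 to 3. The median signal of the 47 probes was 63.5, 79.8 and 52.9 in the naive samples and 68.1, 103 and 71.9 in the EAU samples. It lay below the blank level on every array but that of EAU replicate 3.

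Above the blank level were 12, 21 and 13 of the 47 probes in the naive samples and 16, 19 and 15 in the EAU samples, a mean of 15.3 ± 4.93 (SD, n = 3) and 16.7 ± 2.08 (SD, n = 3). The groups overlap. As shares these are 25.5%, 44.7% and 27.7% in naive and 34.0%, 40.4% and 31.9% in EAU samples. Among the 597 probes that name a mouse microRNA the shares were 42.2%, 48.9% and 46.2% in naive and 49.2%, 52.8% and 41.7% in EAU samples, higher than those of the primate probes on each of the 6 arrays. The difference was smallest in naive replicate 2. Over all arrays together, 11 of 47 primate probes were above the blank level on all 6 arrays, 14 on 1 to 5 and 22 on none. Of the mouse probes, 197 of 597 were above it on all 6 and 224 on none.

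The 11 probes above the blank level on every array were those for miR-519d, miR-519e, miR-519e*, miR-518a-5p/miR-527, miR-518e*/miR-519a*/miR-519b-5p/miR-519c-5p/miR-522*/miR-523*, miR-516b, miR-525-5p, miR-520d-5p, miR-516a-5p, miR-526b and miR-518b. By number, 3 of 6 miR-519 probes, 2 of 3 miR-516 probes, 3 of 11 miR-518 probes and 1 of 10 miR-520 probes are among them. None of the 4 miR-517 probes and neither of the 2 miR-512 probes is. By suffix, 3 of 7 probes named 5p were above the level on all arrays, and 0 of 11 named 3p. So were 5 of 20 probes with no suffix, 1 of 5 star probes and 2 of 4 with several names. These are counts by name and not by arm. The mean Hy3 signal over the 6 arrays ran from 44.5 for miR-518f to 1004 for miR-519d.

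A stricter level changes this picture. Against the 95th percentile of the blank and negative-control spots, 1, 1 and 1 of the 47 probes in the naive samples and 3, 3 and 2 in the EAU samples were brighter. Of 3 cluster microRNAs outside the name rule, miR-498 was above the median-based level on all 6 arrays, and miR-1283 and miR-1323 on none. Of 5 probes for the neighbouring miR-371 to miR-373, 0 were above it on any array. None of these 8 probes was called between the groups.

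The brightest probe was that for miR-519d. Its Hy3 signal was 1155, 1090 and 906 in the naive samples and 935, 1491 and 446 in the EAU samples. EAU replicate 2 is the highest of all and EAU replicate 3 the lowest, and the groups overlap. In the reference channel, where every array holds the same pool, it read 182.7, 252 and 137 on the naive arrays and 131, 180 and 94.7 on the EAU arrays.

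The next brightest, miR-519e, read 423, 417 and 374 Hy3 units in the naive samples and 654, 1148 and 405 in the EAU samples. Its opposite arm, miR-519e*, read 402, 376 and 267 in the naive and 544, 1394 and 235 in the EAU samples. For both, EAU replicate 2 is the highest array and EAU replicate 3 lies within or below the naive range. The probe shared by miR-518a-5p and miR-527 read 306, 254 and 229 in the naive and 314, 703 and 163 in the EAU samples. For it too EAU replicate 2 was the brightest, and EAU replicate 3 was the dimmest, as for miR-519e* but not for miR-519e. The probe with 6 names read 292, 210 and 198 in the naive and 276, 542 and 203 in the EAU samples. That for miR-516b read 239, 199 and 155.2 in the naive and 214, 436 and 156 in the EAU samples. All 6 brightest probes were thus brightest in EAU replicate 2, the array that also had the highest blank level.

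The comparison of the groups used the log2 ratio of sample over reference, after background correction and loess normalization of each array, and limma across all 1724 microRNA probes that had enough values, with Benjamini-Hochberg adjustment and a threshold of 0.05. Of the 47 primate probes, 4 passed, 1 higher and 3 lower in EAU, which is 8.51%. Of all 1724 probes 6.32% passed (109, of which 37 higher and 72 lower), and of 595 mouse probes 8.07% passed (48, of which 19 higher and 29 lower). In this fit the share of called primate probes lies near that of the mouse probes. It was below it in others: 4.26% against 12.8% with the processed signals of the scanner software, and 0 of 47 against 7.42% with the spots of blocks 3 and 4 of the slide alone, 0 of 45 against 10.4% in the authors' deposited table and 0 of 47 against 4.71% without EAU replicate 2. The primate share was above the mouse share with an intensity trend in limma (19.1% against 18.7%) and without EAU replicate 1 (12.8% against 9.95%). With only mouse and primate probes in the fit it was 12.8% against 12.4%, and without background correction 12.8% against 13.3%. With median centring 0 primate and 0 mouse probes were called. At an unadjusted p under 0.05 there were 16 of 47 primate probes (34.0%), against 31.3% of all and 35.1% of mouse probes.

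The groups did not overlap in the log2 ratio for 22 of 47 primate probes, or 46.8%, with 7 higher and 15 lower in EAU. Among all 1724 probes 43.1% did not overlap, and among mouse probes 47.6%. The median difference of the 47 probes was -0.02 on the log2 scale, with quartiles of -0.08 and 0.02, and 18 were above 0 and 29 below. The median over all probes was -0.02 and over the mouse probes -0.01. By this measure too the primate probes sit near the rest in this fit.

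The 47 differences ran from -0.54 to 0.29, so the largest, that of miR-519d, is 1.46-fold. This limit depends on the scaling: the largest was miR-519e* at 0.88 (1.83-fold) with median centring and 0.93 (1.90-fold) without normalization, where miR-519d turned positive, and miR-516a-5p at 0.75 (1.68-fold) with processed signals. In the loess fit, beyond 1.46-fold lay 21 of 595 mouse probes. Of the 48 called mouse probes, 8 differed by more than any primate probe (3 higher and 5 lower), and 40 lay within the range of the primate probes. This share depends on the processing too. Called mouse probes beyond the primate range were 61 of 61 in the deposited table, 58 of 76 with processed signals and 15 of 17 without normalization. They were 25 of 44 with blocks 3 and 4 alone, 21 of 84 with quantile normalization and 15 of 111 with an intensity trend.

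Of the 11 primate probes above the blank level on all arrays, 2 were called, of the 14 above it on 1 to 5 arrays, 2, and of the 22 above it on none, 0. Among mouse probes 34 of 195 above the level on all arrays were called (17.4%) and 0 of 224 above it on none. The 22 primate probes above the level on none had differences between -0.11 and 0.07.

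The one probe called higher in EAU was that shared by miR-518a-5p and miR-527. Its log2 ratio was -0.05, -0.10 and -0.07 in the naive samples and 0.13, 0.26 and 0.27 in the EAU samples. All EAU values lie above all naive values. The difference was 0.29 (SE 0.04), with an adjusted p of 0.0295 in the limma fit. The difference was 0.65 with median centring, 0.70 without normalization and 0.72 with processed signals, at adjusted p-values of 0.405, 0.424 and 0.0436, and 0.28 to 0.30 with a naive array left out, at 0.0774 to 0.116. In the sample channel alone its difference was 0.15 with an adjusted p of 0.896, and in the reference channel -0.22 with an adjusted p of 0.874.

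The largest of the 3 lower calls was miR-526b. Its log2 ratio was 0.01, 0.07 and -0.04 in the naive samples and -0.16, -0.27 and -0.22 in the EAU samples. The groups do not overlap, and the difference was -0.23 (SE 0.04), adjusted p 0.0383 in the limma fit (0.0238 to 0.9997 over its 22 alternatives). Its Hy3 signal was 99.4, 221 and 104 in the naive and 160, 145 and 141.9 in the EAU samples, which overlap.

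MiR-517b had log2 ratios of 0.03, 0.07 and 0.02 in the naive and -0.08, -0.12 and -0.11 in the EAU samples, a difference of -0.14 (SE 0.02) with an adjusted p of 0.0305 in the limma fit. MiR-520f had 0.03, -0.01 and 0.00 in the naive and -0.11, -0.11 and -0.12 in the EAU samples, a difference of -0.12 (SE 0.02) with an adjusted p of 0.0288. The groups overlap for neither. Both probes were above the blank level in naive replicate 2 only and on no EAU array, so these are differences between signals at the blank level and no fold is given. The Hy3 signal of miR-520f was 54.5, 179 and 47.7 in the naive and 93.4, 90.1 and 91.5 in the EAU samples. Of the 7 negative-control probes of the array, 2 spread over more than 2-fold between arrays, numbers 2 and 6, both brightest in naive replicate 2. Number 2 read 55.4, 179.5 and 46.3 in the naive and 91.6, 92.4 and 100.9 in the EAU samples. The other 5 spread over 1.27-fold to 1.85-fold, and number 3 of them was also brightest in naive replicate 2.

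The largest difference was not called. MiR-519d had log2 ratios of 0.06, 0.06 and -0.03 in the naive and -0.30, -0.52 and -0.72 in the EAU samples. The groups do not overlap, with a difference of -0.54 (SE 0.11) and an adjusted p of 0.0519 in the limma fit. Its sign depended on the scaling: with median centring in place of loess the difference was 0.06, and with no normalization 0.12. In the reference channel it was higher on the EAU arrays by 0.19 (SE 0.04), at an unadjusted p of 0.00437 and an adjusted p of 0.874, although that channel holds one pool.

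The other named probes had no call. MiR-519e* differed by 0.27 (SE 0.10, adjusted p 0.147 in the limma fit) and miR-516a-5p by 0.21 (SE 0.09, adjusted p 0.197), both without overlap. With median centring these were 0.88 and 0.57. MiR-518b differed by -0.17 (SE 0.09, adjusted p 0.234), and its sign turned to 0.09 with median centring. MiR-519e differed by 0.06, the probe with 6 names by 0.07 and miR-516b by 0.0020. The values of these last 3 overlap between the groups. All 3 differences were larger with median centring (0.81, 0.54 and 0.34) and without normalization (0.87, 0.59 and 0.39), and none was called there, with adjusted p-values of 0.0941 to 0.725.

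In the sample channel alone, compared after quantile normalization between arrays, 1 of 47 primate probes was called, miR-519e. Of all 1724 probes 2.15% were called. Its normalized log2 signal was 8.75, 8.77 and 8.86 in the naive and 9.36, 9.25 and 9.33 in the EAU samples. The groups do not overlap, and the difference was 0.52 (SE 0.05) with an adjusted p of 0.0194 in limma. The call was lost with median centring (difference 0.69, adjusted p 0.684), and 0 primate probes were called without naive replicate 1, 2 or 3 or EAU replicate 2. With the spots kept that the scanner software had marked as outliers, miR-519e had an adjusted p of 0.0763, and miR-519d was called lower in its place (-0.52, adjusted p 0.0466). Over the 11 alternatives in this channel the difference of miR-519e ran from 0.46 to 0.72 and its adjusted p in limma from 0.0446 to 0.9995. Groups did not overlap for 6 of 47 primate probes, against 21.9% of all probes.

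In the reference channel 0 of 47 primate probes and 0% of all 1724 probes were called by limma. At an unadjusted p under 0.05 there was 1 primate probe, miR-519d, and 77 over all probes (4.47%). The groups of arrays did not overlap for 7 of 47 primate probes, against 9.98% of all probes. The 4 primate probes called in the ratio fit do not include miR-519e, the 1 called in the sample channel.

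The 4 spots of a probe did not give one value. The repeats lie in 4 blocks along the long axis of the slide, in the same order for all 1730 probes, so block 1 and block 4 are at opposite ends of it. A probe was counted as uneven on an array if its brightest spot was at least 2 times its dimmest in Hy3. Of the 47 primate probes, 3, 12 and 4 were uneven in the naive samples and 10, 14 and 18 in the EAU samples, and the brightest spot was in block 1 for 3, 12 and 4 of them in the naive and for 10, 12 and 17 in the EAU samples. Unevenness was thus highest on the EAU arrays and on that of naive replicate 2. Among mouse probes the shares were 6.03%, 24.0% and 8.71% in naive and 13.7%, 19.8% and 25.3% in EAU samples, against 6.38%, 25.5% and 8.51% and 21.3%, 29.8% and 38.3% of the primate probes.

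The spots of miR-520f show the pattern. From block 1 to block 4 they read 332, 268, 58.5 and 56.3 Hy3 units in naive replicate 2 and 225, 53.2, 47.8 and 47.4 in EAU replicate 1. In naive replicate 1, where it was even, they read 55.4, 54.1, 53.1 and 55.2. The spots of miR-526b in EAU replicate 1 read 392, 134, 57.0 and 58.1 in the same order, so only those in blocks 1 and 2 stood above the blank level of that array.

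Unevenness was measured in the same Hy3 spots that enter the ratio, and it was most frequent on the EAU arrays and that of naive replicate 2. The differences of probes picked by it are therefore not independent of how they were picked. The 11 primate probes that were uneven on 3 or more arrays hold all 3 lower calls, miR-526b, miR-517b and miR-520f. All 11 had a negative difference, with a median of -0.12, and for 10 of them EAU was lower without overlap. The other 36 had a median of 0.00063, with 18 negative, 1 call and 5 that were lower without overlap. Among mouse probes, 111 were uneven on 3 or more arrays, of which 101 had a negative difference 72 were lower without overlap and 11 were called, all 11 lower. Among the remaining non-mouse probes there were 196 such probes, with a median difference of -0.10, of which 109 were lower without overlap and 23 were called, all 23 lower.

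The size of the difference depended on the block. For the 11 uneven primate probes the median difference of the spots in block 1 was -0.39, in block 2 -0.08, in block 3 -0.0027 and in block 4 -0.0086. Among probes with a value on all 6 arrays, EAU was lower without overlap for 7 of 10 of them in block 1, where 23.2% of all probes were, 5 of 11 in block 2 (17.6% of all), 1 of 11 in block 3 (14.4%) and 0 of 11 in block 4 (14.7%). Among all uneven probes of the array the shares were 56.3%, 27.4%, 11.8% and 17%. For the other 36 probes the medians were -0.01, 0.0088, 0.01 and 0.0034 from block 1 to block 4, and 3, 2, 1 and 3 of those with all values were lower without overlap. The 11 lie in the middle of the slide's width, between 834 and 1184 scanner units on an axis over which the 47 probes run from 234 to 1936. The probes for miR-519d and miR-519e, uneven on 0 arrays, and miR-518c*, uneven on 2, lie in the same stretch. With only the spots of blocks 3 and 4, miR-526b differed by -0.0070, miR-517b by -0.02 and miR-520f by -0.03, and 0 of 47 primate probes were called, against 85 of 1715 over all probes. The probe shared by miR-518a-5p and miR-527 was even in Hy3 on all arrays. With those spots it differed by 0.34, at an adjusted p of 0.0838 in limma (0.0190 to 0.424 over its 22 alternatives). Its reference signal did change along the slide: on every array block 1 had its lowest Hy5 signal and its highest log2 ratio. In naive replicate 2 that ratio was 0.43 in block 1 and -0.39 in block 3, and in EAU replicate 3 it was 0.41 and 0.16. Its median SD between spots on one array was 0.29, against a difference of 0.29 in the full fit. The cause of this trend was not tested. What made the spots of block 1 bright was not tested.

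Spread differed between the groups. The SD of the log2 ratio across the 3 arrays had a median of 0.020 in the naive and 0.042 in the EAU samples over the primate probes, and it was larger in EAU for 33 of 47. For mouse probes the medians were 0.030 and 0.045. Between the spots of one probe on one array the median SD was 0.053 for primate and 0.059 for mouse probes.

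With 1 array left out, 0 of 47 primate probes were called without naive replicate 1, 2 or 3 or EAU replicate 2 or 3, and 6 without EAU replicate 1, the 4 of the full fit together with miR-519d and miR-517c. Over all probes the number called then ran from 0 without EAU replicate 3 to 129 without EAU replicate 1, with 6, 11 and 3 without naive replicates 1 to 3 and 55 without EAU replicate 2.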

How the data were processed

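For each array the authors deposited the scanner's output, which gives each spot's intensity and local background in both channels. Per the file headers, the program was Agilent Feature Extraction 9.1.3.1. A second deposited file lists 1 linear ratio for each probe and array. Against the scanner values it follows Hy3 over Hy5 (median correlation over the 6 arrays 0.937, across 470 bright probes), and its column medians are 0.879, 0.851 and 0.769 for naive and 0.809, 0.886 and 0.807 for EAU replicates 1 to 3. How it was normalized or centred is not given in the sources used here, and that stays unknown. In 36 rows, miR-520c-3p and miR-518b included, the ratio was above 32 on every array, and these were left out.

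Mean signals were corrected by normexp (offset 50) for the median local background and normalized by loess within each array, giving control spots no weight (limma 3.58.1, R 4.3.3). Outlier spots were left out of the fits, not of the printed raw signals (9 spots of the primate probes), and spots were averaged per probe. A probe needed at least 2 values per group. EAU was compared with naive by lmFit and eBayes, two-sided, over all microRNA probes. Single channels were quantile normalized. Every spot of the primate probes carried the program's well-above-background flag, so blank spots set the level. Named are the called probes, the 6 brightest and the 3 largest differences in each direction. miR-519e in the sample channel, the negative controls, miR-517c and miR-520f's spots were chosen after their values were seen, as was the measure of unevenness. The members and lists were chosen with earlier results of these data known. The fit was tested on simulated data, with shifts larger than the called differences of the primate probes and independent noise between probes and arrays. That test does not show how it performs with smaller differences or with trends along the slide. The number of arrays limits the precision.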

Additional observations from a re-analysis of the deposited data

How the results depend on the processing

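The count of 4 called primate probes became 0 with median centring, without normalization, with the deposited table (45 probes) and with the spots of blocks 3 and 4 or of block 4 only, 1 with loess on spots above the blank level, 2 with the processed signals or the median of the 4 spots, and 9 with an intensity trend. It was 0 to 6 with 1 array left out. The count over all probes (109, 37 higher and 72 lower) moved to 0 with median centring, 28 (23 and 5) without normalization, 71 (40 and 31) with loess on bright spots, 167 (91 and 76) with quantile normalization, 171 without background correction, 179 (100 and 79) with processed signals, 43 with block 4 only, 251 with the trend and 0 to 129 with 1 array left out. For mouse probes (48) the range with 1 array left out was 0 to 59. With the replicate number as a block, 0 primate probes and 0 of all probes were called in the ratio fit and 0 primate probes in the sample channel. The same-number correlations were 0.116, -0.21 and 0.199, within the range of -0.415 to 0.311 for pairs with different numbers. With 3 arrays per group they cannot show whether the numbers pair the samples.

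In the sample channel, 0 primate probes were called with median centring, without normalization and with blocks 3 and 4 only, and 0 to 1 with 1 array left out. In the reference channel 0 were called in all 12 fits. The median difference of -0.02 was 0.049 without normalization, 0.028 with loess on bright spots, -0.050 with an offset of 10, -0.036 without background correction, -0.070 in the deposited table and 0.0021 for the 17 probes above the blank level on at least 3 arrays. At the 95th percentile the counts above the level were 1, 1, 1, 3, 3 and 2. With all spots required they were 10 for naive replicate 2 and 12, 15 and 9 for EAU replicates 1 to 3, and with 2 median absolute deviations 19 for EAU replicate 3.

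Signs turned for values that passed in neither setting, apart from miR-520f, called in the fit as reported and 0.032 without normalization. These were miR-519d (0.065 with median centring, 0.12 without normalization), miR-518b (0.091, 0.15, and 0.046 with quantile normalization), the probe with 6 names (-0.11 in the deposited table), miR-519e (-0.020 without EAU replicate 1, to 0.11 without EAU replicate 3) and miR-516b (-0.00081 with quantile normalization, -0.048 without background correction, -0.18 in the deposited table, and -0.021 to 0.025 with 1 array left out). Of the 22 alternatives, the call held in 8 for miR-518a-5p/miR-527 and 9 for miR-526b, and of 21 in 7 each for miR-517b and miR-520f. MiR-519d was called in 6 of 22. Restrictions to blocks and the median of spots were chosen after seeing the data. The cause of these changes was not tested, beyond fewer arrays or spots in some.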
